A study of Rattus norvegicus with 22 samples.

Results

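Of 22 rat liver RNA sequencing libraries, 4 held few reads of 5.8S ribosomal RNA, and the genes that differ between them and the other libraries of their groups are described here. The 4 were chosen by a measured value, a normalised count under 200 in the 5.8S row, and are called the low libraries. They are vagotomy air libraries 1 and 5, sham ozone library 3 and vagotomy ozone library 1. The comparison set is the 13 other libraries of the same 3 groups, 4 of vagotomy air, 5 of sham ozone and 4 of vagotomy ozone. The 5 sham air libraries hold no low library and are given beside the results as a further set. Counts are in units of the submitters' normalised count, reads divided by 1 size factor per library.

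The study crossed exposure with surgery. Rats had sham surgery or hepatic vagotomy, in which the vagal branch to the liver is severed, at 12 weeks of age. After 5 to 6 days of recovery they breathed air or 1.0 ppm of ozone, in sessions of 4 hours held once or on 2 days, with necropsy within 2 hours. RNA was extracted from 10 to 20 mg of liver taken at a similar place, and the library kit was PrepX RNA-Seq, and the labels give neither strain nor sex nor the number of sessions of each rat. The groups were sham air with 5 libraries, of which 0 were low, vagotomy air with 6, of which 2 were low, sham ozone with 6, of which 1 was low, and vagotomy ozone with 5, of which 1 was low. All 5 hepatocyte markers looked for (Alb, Apoa1, Ttr, Serpina1 and Tf) were abundant in all 22 libraries, with a lowest normalised count of 13211.

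5.8S rRNA is a short RNA of the large ribosomal subunit. It is cut from the same long precursor as 18S and 28S rRNA and stays base-paired to 28S rRNA in the ribosome. 5S rRNA is transcribed separately, 7SK RNA holds the elongation factor P-TEFb inactive, and small nucleolar RNAs (snoRNAs) guide chemical modification of rRNA and small nuclear RNAs. Most of these RNAs lack a poly(A) tail.

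The other small RNA rows of the table were low in the same libraries. The values that chose the libraries were 180 for vagotomy air 1, 89.4 for vagotomy air 5, 72.6 for sham ozone 3 and 38.1 for vagotomy ozone 1. The other 13 ranged from 342 to 3775 with a median of 1687, and sham air from 713 to 2110, so the nearest library outside the threshold, vagotomy air 2, lay at 342. 5S rRNA ranged from 2.63 to 15.1 in the low libraries and from 29.1 to 154 in the others. 7SK overlapped, with 28.9 to 62.3 against 51.5 to 205. Of 82 small RNA rows, 79 had a lower median in the low libraries than in the others. Among the 32 rows with a mean of at least 10, all 4 low libraries lay below all 13 others in 26 and above them in 0. The sum over 60 snoRNA rows was 110 to 173 in the low libraries, 1086 to 8740 in the others and 1078 to 1979 in sham air. SNORD82, a box C/D snoRNA, stood at 9.36, 6.02, 6.13 and 15.3 in the low libraries (vagotomy air 1 and 5, sham ozone 3, vagotomy ozone 1, the order used throughout) against 238 to 1653 in the others and 107 to 330 in sham air. These rows move with the value that chose the libraries and are given without a test.

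**Figure D1:**
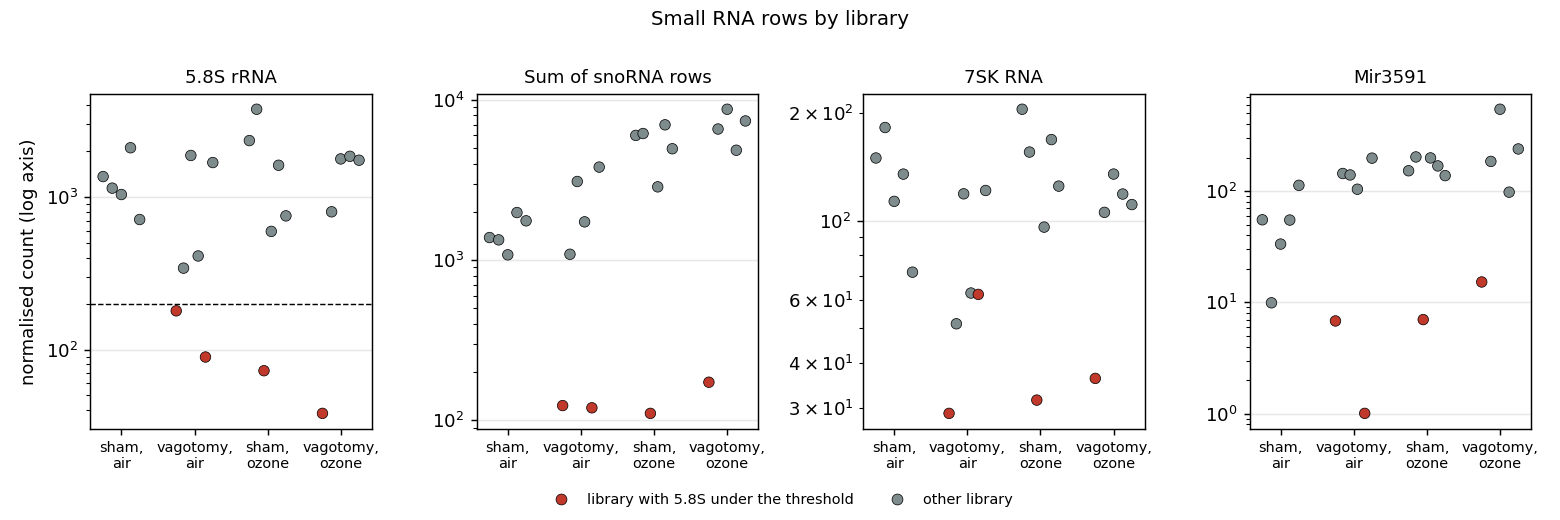
Normalised count (log axis) of 5.8S rRNA, of the sum of 60 snoRNA rows, of 7SK and of Mir3591 in each of the 22 libraries, by group, with 1 point per library and the low libraries in red. The dashed line is the threshold of 200. The red points lie below all others of their groups for 5.8S, the snoRNA sum and Mir3591, while for 7SK 1 of them (62.3) lies among the others.

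A microRNA row behaved like the snoRNAs. Mir3591 had 6.81, 1.0, 7.0 and 15.3 normalised counts in the low libraries, 98.0 to 546 in the others and 9.91 to 113 in sham air, so sham air lay between and reached into the range of the low libraries. Its mature product and that of the abundant liver microRNA miR-122 are read from opposite strands of one locus, which is why both sequences are shown, with the seed (bases 2 to 8) in capitals.
rno-miR-3591: aACACCAUugucacacucca
rno-miR-122-5p: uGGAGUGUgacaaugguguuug
In RefSeq (build GRCr8) the first lies at chr18:61028831-61028850 on the minus strand and the second at chr18:61028831-61028852 on the plus strand. The 20 bases of miR-3591 are the reverse complement of bases within miR-122-5p, and the seeds differ. Whether reads were assigned to genes by strand is not given in the sources used here, so reads of the 2 strands may not be told apart in this row.

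In depth and in the number of genes with a read the low libraries differed from the others by less than the tests could show. Reads assigned to genes were 17026174 to 19469381 in the low libraries, 14098863 to 21141337 in the others and 16408931 to 18721031 in sham air (exact permutation within groups, adjusted p = 0.166 for low against other libraries). Genes with at least 1 read numbered 14692 to 14781, 14548 to 14810 and 14694 to 14739 (adjusted p = 0.282 by the same exact permutation test). Log2 values of libraries within a group correlated with r from 0.948 to 0.989 across genes over 50 pairs.

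Apart from small RNAs, 12392 genes were tested with group as a covariate, and 5379 (43.4%) differed between the low and the other libraries at a limma adjusted p under 0.05, of which 2566 (20.7% of genes tested) rose and 2813 (22.7%) fell. Rose and fell are used below for low against other libraries and only for genes past this threshold. Differences were mostly small. Under 1.5-fold lay 3396 of the called genes, 1094 rose and 889 fell at least 1.5-fold, 299 and 164 at least 2-fold, and 18 and 29 at least 4-fold. In 5131 of the 5379 genes, each of the 4 low libraries deviated from the others of its own group in the called direction. All 4 low libraries lay above all 13 others in 676 genes (5.46%) and below them in 825 (6.66%). Before adjustment 6229 genes had p under 0.05, where 620 would be expected by chance. The 4 libraries were known to stand apart across many genes before this comparison was set up, so these counts describe how far apart they lie and are no independent evidence that they do. When the comparison required more than a 1.5-fold difference, 281 genes passed, 159 higher and 122 lower.

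Transcripts of cytosolic ribosomal proteins, the protein parts of the ribosome, mostly rose. Of 74 tested, 57 rose and 2 fell, with a median log2 difference of 0.69 against -0.00 over all genes tested. With the requirement of more than 1.5-fold 21 of the 74 were higher, beside 159 of 12392 over all genes. The list medians were 0.60, 0.73, 0.85 and 0.62 in the 4 low libraries. Rps23, of the small subunit, stood at 664, 630, 730 and 665 in the low libraries, at 101 to 184 with a median of 142 in the others and at 147 to 258 in sham air. The 3 ranges of Rps23 thus left a gap above all other libraries, and the log2 difference was 2.32 ± 0.103 (SE, limma, adjusted p = 1.54e-11). Rps16 had 627, 858, 1170 and 607 against 134 to 201, and 176 to 333 in sham air, a difference of 2.32 ± 0.12 (adjusted p = 5.15e-11). Rpl6, of the large subunit, had 106, 156, 205 and 121 against 19.5 to 51.6 (2.11 ± 0.232). Rps15 rose by 2.15 ± 0.111 and Rps14 by 1.94 ± 0.127 on the log2 scale.

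Against the direction of the list, Rpl39 fell by 0.57 on the log2 scale. Ribosomal protein genes have many processed copies in the genome, and how the counting divided reads between them is not given in the sources used here, so single values of these genes are uncertain. Summed over the list, ribosomal protein transcripts took 0.466% ± 0.0477 of reads (SD, n = 4) in the low libraries and 0.320% ± 0.0211 (n = 13) in the others. The difference centred on groups was 0.145 percentage points (exact permutation within groups, p = 0.00222, the smallest these 450 assignments allow, adjusted p = 0.005).

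Messenger RNAs of ribosomal proteins are known for a run of pyrimidines at the 5′ end through which their translation is regulated. For this reason the start regions of the 2 largest ribosomal protein rises are shown from RefSeq (build GRCr8) beside that of Ppia, whose fall was among the largest. Each runs from 50 bases before to 30 bases from the annotated start, on the plus strand, with CTTTC between 10 bases before and 20 bases after the start in capitals.
Rps23: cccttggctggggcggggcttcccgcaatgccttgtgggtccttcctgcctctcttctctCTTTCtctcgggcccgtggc
Rps16: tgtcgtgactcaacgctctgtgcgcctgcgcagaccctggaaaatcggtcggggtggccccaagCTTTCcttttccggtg
Ppia: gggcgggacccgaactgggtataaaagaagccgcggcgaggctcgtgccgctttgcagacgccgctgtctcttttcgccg
They lie at chr2:23814467-23814546, chr1:92770608-92770687 and chr14:85493166-85493245. CTTTC was searched on the strand of the gene and, as GAAAG, on the other, and the motif begins at base 11 of Rps23 and base 15 of Rps16 counted from the start. It was found in 936 of 27457 windows of this length (3.41%) and in 23 of 59 ribosomal protein windows (39.0%), and on the other strand in 3.78% and in 1 of 59. The median log2 difference of ribosomal protein genes was 0.80 with the motif and 0.74 without, and this difference was not tested. A match is a run of letters and no measured site.

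Most nuclear-encoded subunits of the respiratory chain and ATP synthase rose. Of 75 tested, 50 rose and 7 fell, with a median of 0.43. With the requirement of more than 1.5-fold 8 were higher, beside 159 of 12392 over all genes. Cox4i1, a subunit of cytochrome c oxidase, had 4081, 5069, 6522 and 3962 in the low libraries, 1754 to 3732 in the others and 2114 to 2991 in sham air, a log2 difference of 1.14 ± 0.115 (adjusted p = 3.75e-07). Its low libraries lay above all others. Ndufs7, of complex I, had 292, 344, 468 and 233 against 93.9 to 183 (1.47 ± 0.145), and Ndufv3 rose by 0.90 ± 0.0901. Ndufc1, also of complex I, was the main exception with 967, 760, 738 and 987 against 2540 to 7115, and 840 to 2287 in sham air (-2.26 ± 0.156, adjusted p = 4.17e-09). Sham air therefore overlapped the low libraries for Ndufc1 and lay below every other library.

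Of 13 protein-coding transcripts of mitochondrial DNA 6 fell, 1 rose and 6 did not pass, with a median of -0.22. With the requirement of more than 1.5-fold 0 were lower, beside 122 of 12392 over all genes, so this does not set the list apart. Mt-co2, a core subunit of cytochrome c oxidase, stood at 71169, 77045, 84450 and 105330 in the low libraries and at 126881 to 261891 in the others (-1.02 ± 0.128, adjusted p = 4.49e-06). Sham air (105260 to 121626) lay below all the others, and its lowest library was level with the highest low library. Mt-nd5 differed by -0.82 ± 0.132, Mt-atp6 by -0.77 ± 0.105 and Mt-cyb by -0.40 ± 0.103, and the 1 that rose was Mt-atp8, at 0.27. As a share of reads these transcripts took 3.10% ± 0.239 (SD, n = 4) in the low libraries, 4.22% ± 0.438 (n = 13) in the others and 3.46% to 4.33% in sham air (exact permutation within groups, p = 0.00222, adjusted p = 0.005).

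Mitochondrial ribosomal proteins are nuclear-encoded and form the ribosomes that translate the mitochondrial messages. Of 74 tested, 44 rose and 6 fell, with a median of 0.36. With the requirement of more than 1.5-fold 4 were higher, beside 159 of 12392 over all genes. Mrpl2 had 216, 240, 300.2 and 222 against 101 to 140 (1.09 ± 0.0916). Mrpl54 had 174, 214, 262 and 156 against 56.6 to 113 (1.42 ± 0.132). Mrps35 rose by 0.82 ± 0.105, with 1 low library (167) inside the range of the others (99.7 to 180). Among those that fell were Mrpl50 by 0.60 and Mrpl32 by 0.54 on the log2 scale.

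Most histone transcripts rose. All 5 tested replication-dependent histones, whose messages end in a stem-loop in place of a poly(A) tail, rose with a median of 0.98, and of 9 other histones 7 rose and 0 fell with a median of 0.58. Hist1h2bcl1, an H2B histone, had 1343, 1610, 1484 and 1455 in the low libraries against 570.3 to 952 in the others (0.98 ± 0.0984, adjusted p = 3.26e-07). Sham air (996 to 1132) lay above every other library of the comparison and below every low one. H2afz, the variant H2A.Z, had 51.9, 82.3, 63.0 and 62.9 against 16.3 to 43.6 (1.19 ± 0.238). Hist2h2aa2 and Hist2h2aa3 hold the same values in every library and count as 1 measurement. The replication-dependent histones took 0.0108% of reads in the low libraries and 0.00556% in the others (exact permutation within groups, adjusted p = 0.005), and 0.00737% to 0.00846% in sham air.

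Among splicing factors more genes fell than rose. Of 33 genes that encode splicing factors or are known for retained introns 0 rose and 18 fell, with a median of -0.37. Srsf1, a serine and arginine rich splicing factor, had 1934, 1742, 1552 and 2466 against 2367 to 4163 in the others and 2249 to 3007 in sham air (-0.80 ± 0.0869, adjusted p = 9.32e-07), so vagotomy ozone 1 overlapped the others. Luc7l2, a U1-associated protein, had 894, 957, 745 and 1014 against 1042 to 1491 without overlap (-0.51 ± 0.0891). Hnrnpa2b1, an RNA-binding protein of the hnRNP family, had 1580, 1447, 1379 and 1874 against 1894 to 2414 (-0.44 ± 0.078). Each splicing factor difference was under 2-fold, and with the requirement of more than 1.5-fold 0 of the 33 passed. Over all genes 122 of 12392 were lower under that requirement, so 0 of 33 does not set the list apart.

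Factors that build the ribosome did not share the direction of its proteins. Of 25 tested, 8 rose (32%) and 7 fell (28%), with a median of 0.11. Dkc1, the pseudouridine synthase of box H/ACA snoRNA particles, had 248, 307, 360 and 318 against 107 to 207 (1.09 ± 0.1, adjusted p = 1.32e-07), without overlap. Ncl, nucleolin, rose by 0.59 ± 0.0648. Ddx21, a nucleolar RNA helicase, had 561, 510, 986 and 801 against 1056 to 2301, and 703 to 998 in sham air (-1.14 ± 0.0832, adjusted p = 9.12e-09). Utp15, of the complex that processes the small subunit precursor, fell by 0.66 ± 0.0973. Of 19 protein-coding genes that carry snoRNAs in their introns 7 rose and 5 fell, shares of 36.8% and 26.3% beside the 20.7% and 22.7% of all genes, and hosts were not matched to their own snoRNA rows. Among the hosts that fell were Rnf149 (-0.83 ± 0.1) and Cwf19l1 (-0.59 ± 0.087), and among those that rose were again Dkc1 and Ncl.

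**Figure D2:**
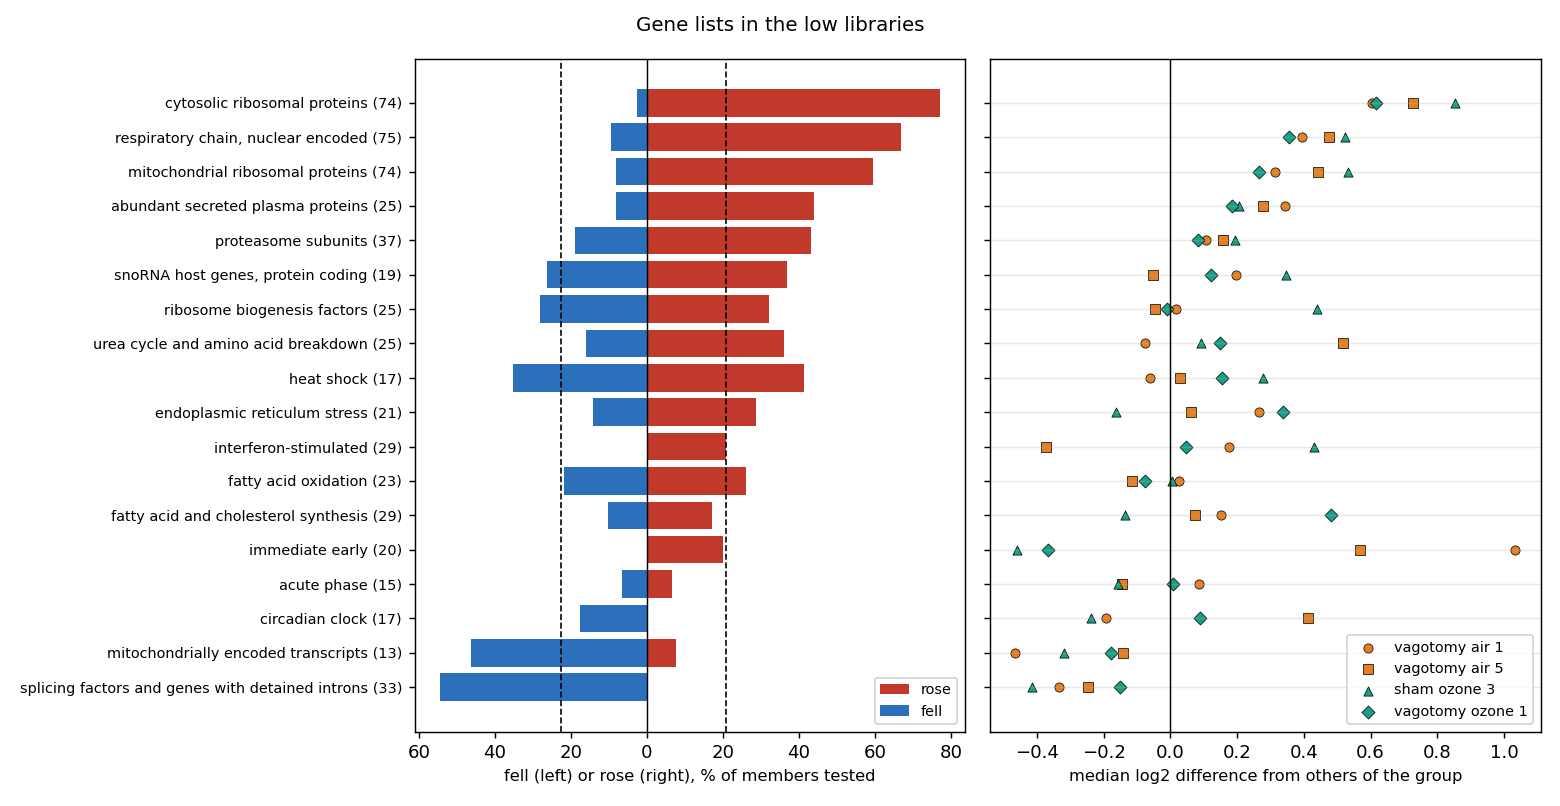
Left, share of the tested members of 18 gene lists that fell (bars to the left) or rose (bars to the right) in the low libraries, in % of members, with the number tested in brackets and dashed lines at the shares over all genes (20.7% and 22.7%). Right, median log2 difference of each list in each low library from the other libraries of its group. Cytosolic ribosomal proteins reach farthest to the right in the left panel, splicing factors and mitochondrially encoded transcripts lie to the left, and the 4 points of the immediate early list split by exposure.

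Among single genes the largest rise under the naming rule was that of Serpina10, a plasma inhibitor of coagulation proteases made in the liver, with 378, 276, 452 and 209 against 13.1 to 85.2 (3.44 ± 0.398, adjusted p = 1.77e-06). Sham air (74.4 to 463) spanned the range from the others to the low libraries. Ftl1, the ferritin light chain, had 17173, 19152, 19324 and 15364 against 4325 to 6355, and 4680 to 7102 in sham air (1.78 ± 0.0894, adjusted p = 3.81e-11). Ifitm1, an interferon-induced membrane protein, had 229, 291, 299 and 219 against 51.2 to 98.0, with sham air (106 to 143) between (1.76 ± 0.158). Timm13, a carrier chaperone of the mitochondrial intermembrane space, rose by 1.65 ± 0.177, Nudt8 by 1.77 ± 0.199 and Wfdc21 by 1.65 ± 0.251. Outside the naming rule and picked after its values were seen, the unnamed locus LOC108351482 rose most of all genes tested, with 286, 362, 334 and 368 against 0 to 15.7 and 5.57 to 96.4 in sham air.

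Ppia, cyclophilin A, a prolyl isomerase often used as a reference gene, had the third largest fall under the naming rule, after a pair of rows near 0. It had 378, 224, 323 and 201 normalised counts in the low libraries, 2641 to 5277 with a median of 3300 in the others and 2236 to 3638 in sham air. The gap held in every library, and the log2 difference was -3.60 ± 0.157 (adjusted p = 1.54e-11). Hsp90aa1, the inducible cytosolic HSP90, had 186, 56.2, 54.3 and 57.2 against 290.1 to 2001 (-3.33 ± 0.378), and sham air ranged from 3.57 to 913. Eef1e1, a scaffold of the aminoacyl-tRNA synthetase complex, had 202, 202, 244 and 268 against 519 to 1114, with sham air (434 to 560) overlapping the others only in part (-1.74 ± 0.0857). Rbmx2, a spliceosomal RNA-binding protein, had 37.4, 20.1, 35.0 and 47.7 against 93.9 to 145 (-1.80 ± 0.147).

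Several of these falls are rows near 0. AC132539.1 had 1 low library at 0.851 and 3 at 0, against 31.4 to 146 in the others and 0 to 79.3 in sham air. Ubbp4, by its symbol a pseudogene of ubiquitin B, had 1.70, 0, 0 and 1.91 against 4.76 to 743, and sham air, at 0 to 31.8, was low as well. No fold is given for these 2 rows. Ppia, Hsp90aa1 and Ubbp4 belong to families with near-identical processed copies, so a read may be assigned to either copy and their values are uncertain. All values of 86 rows are shared with another row. LOC257642, named after its values were seen, was abundant, with 2069, 8772, 10342 and 2190 in the low libraries, 8459 to 123832 in the others and 25768 to 48923 in sham air, a log2 difference of -2.73 ± 0.486 (adjusted p = 0.000176).

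**Figure D3:**
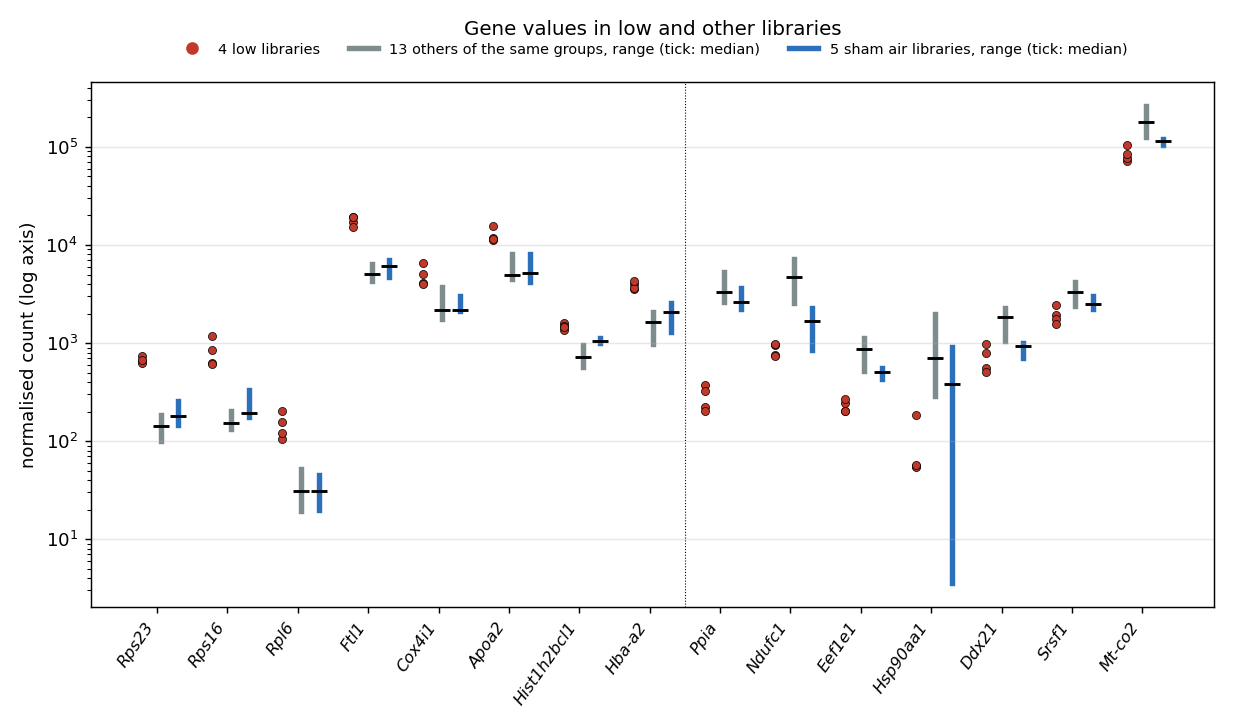
Normalised counts (log axis) of 15 genes in the 4 low libraries (red points), with the range and median of the 13 other libraries of the same groups (grey) and of the 5 sham air libraries (blue). Genes left of the dotted line rose and those right of it fell. For Rps23, Ftl1 and Ppia the red points are clear of both bars, while for Ndufc1, Ddx21 and Hsp90aa1 sham air reaches the red points.

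A larger share of short genes than of long genes rose, and a larger share of long genes fell. Over 90.8% of the tested rows a gene span, the distance from first to last base of the gene including introns, could be taken from RefSeq. With genes in 5 equal bins of span, in the shortest bin (up to 8580 bp) 39.9% of genes rose and 11.5% fell, and in the longest (from 72533 bp) 6.84% rose and 31.3% fell, with the bins between in order and medians of 0.23, 0.11, -0.01, -0.12 and -0.16. The share that rose was in the same order within each of 3 bins of abundance. In the least abundant bin it went from 33.7% among the shortest to 4.86% among the longest genes, and in the most abundant bin from 39.0% to 7.92%. By abundance alone, in 5 bins, 7.66% of the least abundant and 37.0% of the most abundant genes fell. Read-weighted median span was 17762 bp ± 734 (SD, n = 4) in the low libraries and 19937 bp ± 1123 (n = 13) in the others (exact permutation within groups, p = 0.00444, adjusted p = 0.008). The ranges overlapped, at 16720 to 18276 bp in the low libraries, 17931 to 21612 bp in the others and 17276 to 21057 bp in sham air.

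The library with the steepest relation was sham ozone 3, in which the shortest bin lay 0.34 above and the longest 0.24 below the other libraries of its group on the log2 scale, and vagotomy ozone 1 had the flattest of the low libraries with 0.13 above and 0.04 below. Sham ozone 2, which is not low, had 0.17 above and 0.14 below, and sham air 1 had 0.18 above and 0.24 below. Vagotomy ozone 4, also not low, had 0.08 above and 0.07 below. For libraries that are not low, the mean of the group included the library itself. Their deviations are therefore smaller than they would be from the rest of the group alone. The median log2 value of the shortest bin minus that of the longest differed by 0.40 between low and other libraries (exact permutation within groups, adjusted p = 0.005), a measure chosen after seeing the data. The gene groups above also differ in span. The median span was 25006 bp over all genes tested, 3192 bp for cytosolic ribosomal proteins (70 of 74 in the shortest bin), 6652 bp for mitochondrial ribosomal proteins, 7181 bp for the nuclear-encoded respiratory chain and 18003 bp for splicing factors, which had 27.3% of their members in the shortest bin and 0 that rose. Among cytosolic ribosomal proteins 77.0% rose, against 39.9% of the whole shortest bin. The part of gene span in these results was not tested.

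**Figure D4:**
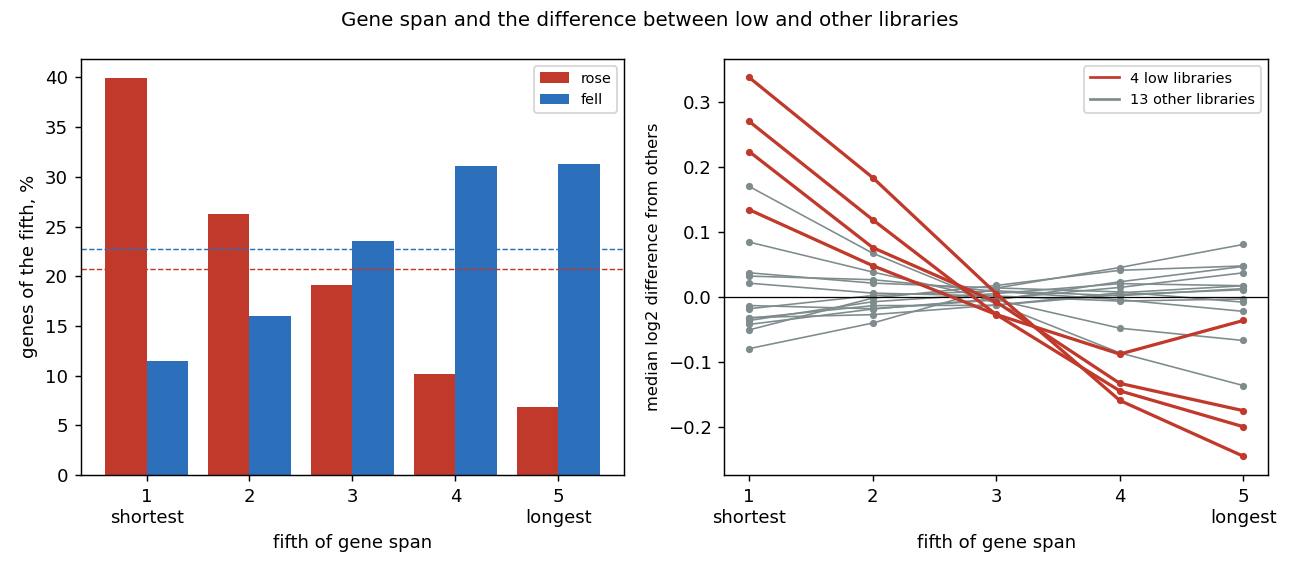
Left, share of genes that rose or fell in each bin of gene span, in %, with dashed lines at the shares over all genes. Right, median log2 difference of each bin from the mean of the libraries of the group that are not low, 1 line per library. For a grey line that mean includes the library itself. The 4 red lines slope down from between 0.13 and 0.34 in the shortest bin, and 1 grey line, sham ozone 2, starts at 0.17.

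Genes of liver function moved in both directions within pathways. Among 25 abundant secreted plasma proteins 11 rose and 2 fell, with a median of 0.25. These are shares of 44% and 8%, beside 20.7% and 22.7% over all genes. Several apolipoproteins rose, Apoa2 with 11870, 11289, 15624 and 11502 against 4472 to 8013 (1.28 ± 0.122), Apoc4 by 1.16 ± 0.105, Apoc3 by 1.14 ± 0.127 and Apoe by 1.13 ± 0.125. Apob, the large scaffold of very low density lipoprotein, fell by 0.38 and Apoc2 by 0.49. In cholesterol synthesis the mevalonate enzymes Mvk (1.04 ± 0.153) and Mvd (1.20 ± 0.251) rose, while Hmgcs1, the synthase upstream of them, fell by 0.47. Over 29 genes of fatty acid and cholesterol synthesis 5 rose and 3 fell, shares of 17.2% and 10.3% that lie below those over all genes.

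Of 23 genes of fatty acid oxidation and ketone body synthesis 6 rose and 5 fell. These shares, 26.1% and 21.7%, lie near the 20.7% and 22.7% over all genes. Of the genes induced by PPAR-alpha, Ehhadh (-0.67 ± 0.115) and Cyp4a1 (-0.68 ± 0.119) fell. Of 25 urea cycle and amino acid genes 9 rose (36%) and 4 fell (16%), with Cbs, cystathionine beta-synthase, at 0.60 ± 0.0937 and Otc, ornithine transcarbamylase, at -0.68 ± 0.107. Arg1, arginase, differed by -0.52 ± 0.138. Periportal markers (5 rose and 2 fell of 14) and pericentral markers (3 rose and 1 fell of 13) showed no common direction. Their shares were 35.7% and 14.3% for periportal and 23.1% and 7.69% for pericentral markers. Glul, glutamine synthetase of pericentral cells, differed by 0.30 ± 0.0781.

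Proteasome subunits moved both ways. Of 37 tested, 16 rose and 7 fell, shares of 43.2% and 18.9% beside 20.7% and 22.7% over all genes. Psmb5, a catalytic subunit, had 673, 709, 875 and 787 against 324 to 500.3 (1.03 ± 0.105), Psma6 rose by 1.09 ± 0.123 and Psmb3 by 0.62 ± 0.0751, and Psmc2, an ATPase of the regulatory particle, rose by 0.78 ± 0.0718. The immunoproteasome subunits Psmb9 (295, 219, 216 and 248 against 50.1 to 137, 1.18 ± 0.167) and Psmb8 (0.74 ± 0.12) rose, as did the peptide transporter Tap1 (0.76 ± 0.118) and the antiviral tether Bst2 (0.68 ± 0.0969). Over 29 interferon-stimulated genes 6 rose and 0 fell, a share of 20.7% that equals that over all genes.

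Stress genes were mixed. Among 17 heat shock genes 7 rose and 6 fell, with Hspb1, a small heat shock protein, at 1.09 ± 0.173 and Chordc1, an HSP90 partner, at -0.63 ± 0.102. Among 21 genes of endoplasmic reticulum stress 6 rose and 3 fell. Dnajb9, a luminal co-chaperone, had 479, 430, 570 and 412 against 732 to 1193 (-0.89 ± 0.0886), whereas Creld2 (0.74 ± 0.121) and Sdf2l1 (0.85 ± 0.163) rose. Of 15 acute phase genes 1 rose, the iron hormone Hamp (2681, 6395, 8816 and 2219 against 987 to 4385, 1.25 ± 0.25), and 1 fell, the interleukin 1 antagonist Il1rn (-0.73 ± 0.157). Of 15 hypoxia genes 2 rose and 3 fell, and Vegfa differed by -0.48 ± 0.113. Of 17 clock genes 0 rose and 3 fell, Clock (-0.43 ± 0.082), Rora (-0.66 ± 0.154) and Nr1d2 (-0.58 ± 0.19). Nr1d2 went the other way in vagotomy air 5, at 0.15 on the log2 scale. Of 19 glucocorticoid response genes 2 rose and 1 fell, the last being Tsc22d3 (-0.60 ± 0.211). Of 13 mitosis genes 1 rose, Cdc20 (0.82 ± 0.308), and 1 fell, Kif11 (-0.63 ± 0.213). Over all genes 20.7% rose and 22.7% fell. Both shares were lower for acute phase (6.67% and 6.67%), hypoxia (13.3% and 20%) and clock genes (0% and 17.6%). They were also lower for glucocorticoid response (10.5% and 5.26%) and mitosis genes (7.69% and 7.69%). Heat shock genes stood at 41.2% and 35.3%, and endoplasmic reticulum stress genes at 28.6% and 14.3%.

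Markers of other cells were examined for a change in the piece of tissue sampled. Red blood cell markers were higher. Hba-a2, an alpha globin, had 3970, 3525, 3641 and 4319 in the low libraries, 974 to 2066 in the others and 1292 to 2548 in sham air (1.25 ± 0.141, adjusted p = 1.35e-06), and the low libraries lay above all others. Hbb, the beta globin, rose by 0.71 ± 0.17, and 3 of the 5 red cell markers tested rose (60%), beside 20.7% of all genes. Of 14 red cell markers 6 were listed, with a summed normalised count of 6519 to 8793 in the low libraries, 2287 to 5449 in the others and 2843 to 5819 in sham air. In whole liver a larger share of a cell type and more RNA per cell cannot be told apart. The part of blood in the other differences was not tested.

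The other marker lists overlapped between low and other libraries in their sums. Over all genes, for the counts of markers below, 20.7% were higher and 22.7% lower. All 15 macrophage and Kupffer cell markers were listed, with sums of 7534 to 10787 against 7239 to 14473. Of 14 of them tested 3 rose, among them the complement component C1qc (0.84 ± 0.15), and 2 fell, among them Vsig4, the complement receptor of Kupffer cells (-0.66 ± 0.157). Endothelial markers summed to 6297 to 8075 against 5360 to 8151, with 6 of 13 higher, led by Egfl7 (0.96 ± 0.151), and 1 lower. Stellate cell and fibroblast markers summed to 4443 to 9086 against 4064 to 8317 (2 of 13 higher), and Dcn, decorin, had 58.7, 73.3, 141 and 113 against 76.6 to 507 (-1.11 ± 0.22). Bile duct markers summed to 529 to 595 against 564 to 743, with 0 of 7 higher and 1 lower. Lymphocyte markers summed to 435 to 872 against 399 to 844 (2 of 7 higher and 1 lower) and neutrophil markers to 20.0 to 96.1 against 27.2 to 101, with 0 of 2 past the threshold. Pancreas markers summed to 660 to 945 against 591 to 975, with Cela1 at 0.05 ± 0.133 and 0 of 2 past the threshold. Adipocyte markers summed to 944 to 1331 against 621 to 1139, and Cfd, adipsin, rose with 27.2, 63.3, 88.4 and 20.0 against 5.72 to 21.8 (1.57 ± 0.327). Skeletal muscle markers summed to at most 19.3.

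The air and the ozone libraries allow the comparison to be made in each on its own, with no library shared. The 6 vagotomy air libraries (2 low) gave 2976 called genes and the 11 ozone libraries (2 low, with group as covariate) gave 2994. Both fits called 2069 of them, 69.5% of the air calls and 69.1% of the ozone calls, and all 2069 had the same direction. Of the air calls 99.1% had the same sign in ozone and of the ozone calls 99.2% had the same sign in air, against 82.5% of all genes. Across the 12392 genes, which are not independent, the differences in air and in ozone correlated with Pearson r = 0.813 and Spearman rho = 0.798. Of all genes 10.7% were higher and 13.3% lower past the threshold in air, and 11.3% and 12.9% in ozone. Cytosolic ribosomal proteins had 45 of 74 higher in air and 47 in ozone, and splicing factors had 7 of 33 lower in air and 13 in ozone. Mitochondrial ribosomal proteins had 28 and 23 of 74 higher, the respiratory chain 42 and 37 of 75, and mitochondrially encoded transcripts 5 and 3 of 13 lower.

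**Figure D5:**
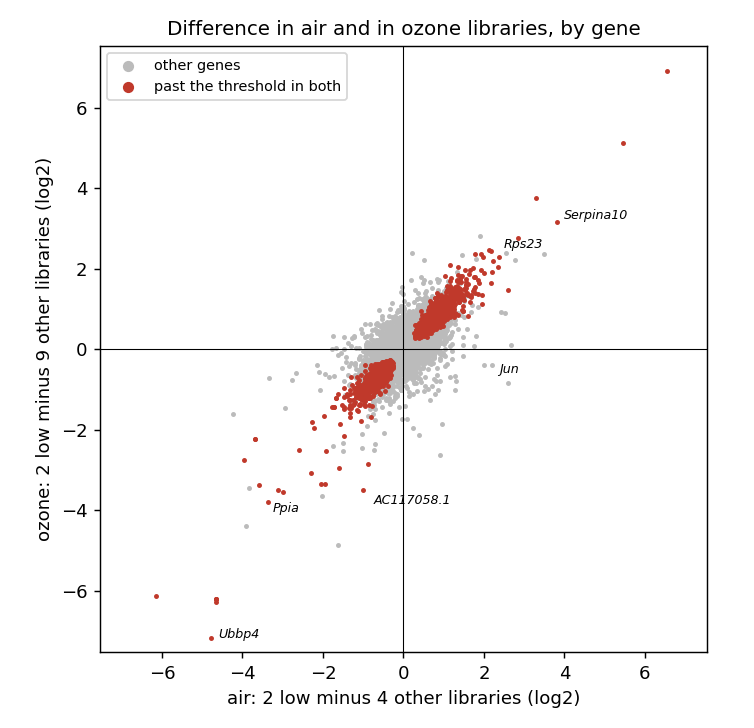
Log2 difference of each of 12392 genes between low and other libraries, in air (x axis, 2 low and 4 other libraries) and in ozone (y axis, 2 low and 9 other libraries), with the 2069 genes past the threshold in both fits in red. The red points lie in the lower left and upper right corners. Ppia and Ubbp4 stand at the lower left and Serpina10 at the upper right, and Jun lies to the right at -0.39 in ozone.

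The test of the difference between the air and the ozone shift called 1 of 12392 genes (0.00807%), and 219 had an unadjusted p under 0.05. The 219 is fewer than the 620 expected by chance, so few calls here do not show that the shifts are alike. Each low ozone library is the only low one of its group, so the spread between them does not enter the SE of this test. The gene called was AC117058.1, which had 48.5 and 50.2 in the low air libraries and 2.63 and 22.9 in the low ozone libraries, against 64.4 to 173 in the others. AC117058.1 shifted by -5.27 in sham ozone 3 and by -1.63 in vagotomy ozone 1. Its shift was -1.01 in air and -3.45 in ozone, a difference of 2.44 ± 0.286 (limma adjusted p = 0.00191), and the count of called genes was 0 without sham ozone library 3, 2 without vagotomy ozone library 1 and 7 without vagotomy air library 1.

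Immediate early genes are transcription factors and their like that are induced within minutes of a stimulus. Of 20 tested, 4 rose (Jund at 1.17 ± 0.175, Ier2 at 0.62 ± 0.243, Klf2 at 0.61 ± 0.223 and Ier5 at 0.44 ± 0.171) and 0 fell. The share that rose was 20%, beside 20.7% of all genes. The shifts of these 4 were positive in both exposures. With each exposure on its own, Jund passed the threshold in both, Ier2 in air only (0.13 in ozone) and Klf2 and Ier5 in neither. The list medians were 1.03 and 0.57 in vagotomy air 1 and 5 and -0.46 and -0.37 in sham ozone 3 and vagotomy ozone 1. In 18 of 20 genes the shift was larger in air than in ozone, against 5874 of 12392 genes in all. For that difference 12 of the 20 had an unadjusted limma p under 0.05, against 219 of 12392 in all. After adjustment over all genes 0 of the 20 passed. The 20 genes are not independent and rest on the same 2 low libraries in each exposure, so their number adds no replicates. Atf3, a stress-induced factor, shifted by 2.60 in air and -0.85 in ozone, a difference of 3.44 ± 0.796 with a limma adjusted p of 1.000. Jun shifted by 2.21 and -0.39 (difference 2.60 ± 0.843) and Egr1 by 0.39 and -2.12 (difference 2.51 ± 1.02).

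Sham air was not part of the test, and its place relative to the low libraries varied by gene. Of the 676 genes in which all low libraries lay above all others, the sham air median also lay above all others in 97 (14.3%) and below them in 4, against 4.66% above and 6.28% below over all genes tested. Of the 825 genes in which all low libraries lay below, the sham air median lay below all others in 247 (29.9%) and above them in 1. Both sets were chosen by where the others lie relative to the low libraries, and sham air was placed against those same others. An excess on the side of the low libraries can come from that choice, so the shares over all genes are no matched comparison. Sham air differs from the other groups in surgery and exposure, so these and the features of the low libraries cannot be told apart here. Among the 18 libraries above the threshold, the log2 value of 5.8S was also fitted as a graded measure, with group as a covariate. It was related to 2 rows at a limma adjusted p under 0.05, LOC257642 and AY172581.24, both lower with less 5.8S. Neither matched the names by which small RNA rows were set aside, and what they encode was not examined. An unadjusted p under 0.05 was found for 1087 genes, where 620 would be expected by chance. This fit was added after seeing the data.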

How the data were processed

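Rat liver RNA was sequenced in 22 libraries. The deposited values are a signal per gene, a normalised read count from the authors reads divided by 1 size factor for each library. STAR, Partek, DESeq and DESeq2 are named with rn6, per the submitters' processing notes, without roles. All values were whole multiples of 1 step per library (0 values not whole within 0.001), which gave back the reads. All 22 columns of values entered. Values were analysed as log2(count + 1), so that folds of low genes are understated. Of 14971 rows, 12424 (83.0%) whose mean across the 22 libraries reached 10 were fitted with limma 3.58.1 in R 4.3.3 (group plus a low term, 17 libraries, moderated with an intensity trend, two-sided, Benjamini-Hochberg over all rows). Counts leave out the 32 small RNA rows tested. A difference is low minus other on the log2 scale, with its SE.

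The 9 library measures had two-sided exact permutation tests, reassigning the low label within groups (450 assignments), with adjustment over the 9. The labels number replicates without saying that each is a separate rat, so p-values measure only the spread between these libraries, which may be technical. Lists were described by counts and medians. Several genes stand in more than 1 list. Symbols were matched to RefSeq (12462 by symbol and 603 by synonym), of another build than rn6, so no gene coordinates of it are given. Gene span was used where transcript length had been planned, and GC content was not used because promoter windows covered 75.0% of tested rows. The naming rule took the 12 largest rises and falls among called genes with a mean of at least 50 and a gene name, up to 4 called members of each list by p, 2 members of lists with fewer than 3 calls, and the calls of the air and ozone difference. Other genes named were chosen after their values were seen. Some genes that the rule gives are not reported here. The 4 libraries, lists and tests were chosen with earlier results of these data known.

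Alternatives were pseudocounts of 0.5 and 5, no minimum or a minimum mean of 50, scaling to equal totals, to equal upper quartiles or by quantiles, a replicate block, all 22 libraries, robust moderation, array weights, a fold minimum of 1.5, the S number of the description as covariate, each exposure alone, leaving out each library, and edgeR 4.0.16 and DESeq2 1.42.0 on the recovered reads. On simulated data of this design limma found 58.2% of 67 genes changed 1.5-fold, 80.6% of 67 changed 2-fold and 98.5% of 66 changed 4-fold, and called 7 of 12224 unchanged genes. Genes were drawn independently there and 12224 of 12424 were unchanged, whereas 43.4% were called in the data. These rates therefore do not carry over to the comparison itself. Python 3.11.15 with matplotlib 3.10.9 drew the figures.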

Additional observations from a re-analysis of the deposited data

Results flagged for a closer look

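In 165 sets of 4 or 5 libraries over 33 measures and genes, a library stood apart from the rest of its set 12 times by Dixon's test. Chance flags about 1 in 20 sets. Sham air 5 had 33.2% of reads in its 20 most abundant genes. In the median log2 value of the shortest minus that of the longest of 5 bins of gene span, sham ozone 3 stood at 0.36 above the other 3 low libraries, sham air 1 at 0.13 above the other sham air libraries, sham ozone 2 at 0.0545 above and vagotomy air 6 at -0.55 below the others of their groups. Rps16 was 333 in sham air 1, above the rest of its group. Sham ozone 2 was high among the other sham ozone libraries for Ppia (5277) and Ndufc1 (7115). AC132539.1 was 0.851 in vagotomy air 1, the 1 low library not at 0. Hsp90aa1 was 186 in vagotomy air 1, above the other low libraries. Ubbp4 was 31.8 in sham air 5, and AC117058.1 was 93.1 in vagotomy ozone 4, each the highest of its set. The shift of AC117058.1 differed between air and ozone by 2.44 on the log2 scale in the test of that difference.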

How the results depend on the processing

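Over 134 named genes recomputed, under 35 alternatives, 4363 of 4674 values kept sign and side of the threshold, 297 lost the call, 3 gained it and 11 changed sign. The sign changes were in 4 genes (Cpb1, Csf3r, Cela1 and S100a9), of which 0 had passed the threshold. Apart from the fold minimum, 88 genes kept sign and side under every alternative. Counts moved by more than 1.5 times in 3 settings. With a fold minimum of 1.5 there were 281 calls, 159 higher and 122 lower. With air libraries alone there were 2976 (1330 and 1646) and with ozone libraries alone 2994 (1401 and 1593), each from fewer libraries. Leaving out 1 low library gave 3949 to 4904 calls (1790 to 2368 higher, 2159 to 2536 lower) and leaving out 1 other library 5062 to 5605 (2410 to 2659 and 2652 to 2946). The difference between the air and ozone shift called 0 to 7 genes when a low library was left out. In the main test each low ozone library is already the only low library of its group and is assumed to vary like the rest. Leaving out a low air library extends that assumption to the low air library that remains. These counts therefore do not measure the spread between the low ozone libraries. Reads in the 20 most abundant genes were higher by 1.51 percentage points (adjusted p = 0.02, exact permutation), but by 1.19 (adjusted p = 0.133) without vagotomy ozone 1, with a range of 1.19 to 1.94. Of the calls, 47.7% were higher, and 54.4% after equal upper quartiles, with the median of all genes moved by at most 0.039. Replicate numbers only name libraries within groups and were not taken to pair them: deviations of same-numbered libraries correlated by -0.14 to 0.101 over 16 pairs, and the replicate block gave 4565 calls (2191 and 2374) and 0 for the air and ozone difference. With 4 low libraries, and 1 in each of 2 groups, small differences are beyond what this design can show.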
